A study of Mus musculus with 16 samples.

Results

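CD8 cells from MC38 tumors were compared with CD8 cells from spleens, gene by gene, within each of 4 conditions. MC38 is a mouse colon carcinoma line. It was implanted into 8-week-old female Aire+/+ and Aire-/- littermates on the C57BL/6 background, which received isotype control (a rat IgG2a) or anti-PD1 in doses of 5 mg/kg, given on days 0, 3 and 7 and again on days 10 and 14. The tissues were taken on day 19. Aire drives the thymic expression of tissue antigens, and Aire-/- mice lack it in every cell. In each condition the tumors of 4 to 6 mice were pooled, spleens were pooled, CD8+ cells were sorted, and 1 library per tissue was made with a droplet kit. The labels of these libraries name a kit that reads the 3′ end of RNA, while the study's methods name a 5′ kit where T cell receptor libraries are described, so the end read is uncertain. The 4 pairs come, in the order in which values are given throughout, from Aire+/+ mice with isotype, then with anti-PD1, and from Aire-/- mice with isotype, then with anti-PD1. Because each library is 1 pool, the replicate here is the pair, and the pairs differ in genotype and treatment, so the spread over pairs also holds any effect of these on the tissue difference.

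The members are barcodes of the CD8+ sort with at least 1 UMI (a counted RNA molecule) of Cd8a or Cd8b1, at least 1 UMI of Cd3e, Cd3d or Cd3g, at most 1 UMI of the C1q genes, no UMI of Siglech and at most 1 UMI of Cd79a. They numbered 18789 of the 19840 barcodes of the CD8+ sort and of the 37609 barcodes of the whole series. Tumors gave 2477, 2067, 1705 and 2056 gated cells and spleens 2796, 2856, 2288 and 2544. Levels are UMIs summed over the gated cells of a library and given as CPM, that is scaled to 1000000 UMIs per library after TMM, which lines up libraries on the bulk of their genes. A summed level cannot tell more cells with an RNA from more RNA per cell.

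Cd8a was at 1322 to 1548 CPM in tumor and 579 to 650.5 in spleen, and its partner Cd8b1 was at 1296 to 1605 and 1608 to 1787. Both are gate genes, so these levels do not check the label. Of genes the gate did not use, Cd2, found on T and NK cells, was at 389 to 472 and 323 to 369, and Cd4 was at 1.08 to 1.79 and 0.136 to 0.458. Lyz2, a macrophage lysozyme, was at 1.30 to 2.35 in gated tumor cells and 0.0678 to 0.802 in gated spleen cells, against 1952 to 3157 in C1q-rich barcodes of the CD45+ tumor sort. Summed over the 23 macrophage markers, the level was 575 to 737 in tumor, 250.3 to 265 in spleen and 29154 to 34567 in those C1q-rich barcodes. Most of the gated tumor sum came from Spp1, Ctsb, Ctss and Fcer1g, while Csf1r was at 0.134 to 0.196 and Adgre1 at 0 to 0.245 in tumor. Of the 18 macrophage markers tested, 15 were higher in tumor and 0 lower, and their part in other tumor levels was not tested. Markers of CD4 and regulatory T cells, a list that holds Il2ra and Ikzf2, summed to 235 to 306 in tumor and 28.8 to 36.4 in spleen. B and plasma cell markers summed to 3.08 to 4.24 in tumor and 26.6 to 29.6 in spleen. Aire gave too few UMIs in any library to check the genotype labels.

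The tissues also differed in ways that touch every comparison below. Gated tumor cells held a median of 8822 to 11000 UMIs and spleen cells 5783 to 6382.5. A UMI of Mki67 or Top2a, which mark cycling cells, was found in 33.8 to 44.5% of tumor cells and 2.3 to 4.4% of spleen cells, and a UMI of Ccl5, a chemokine of antigen-experienced CD8 cells, in 56.8 to 76.8% and 20 to 27.3%. With every cell thinned to 2000 UMIs, Top2a was found in 11.5 to 15.8% of tumor and 0.566 to 1.76% of spleen cells, against 1.96 to 3.80% of C1q-rich tumor barcodes and 0.588 to 1.45% of Cd79a-rich spleen barcodes, which are cells that can divide themselves. Thinned shares for Ccl5 were 41.1 to 64.0% and 16.4 to 23%, against 22.2 to 44.6% of C1q-rich and 0.215 to 0.941% of Cd79a-rich barcodes. The median mitochondrial share of UMIs was 1.73 to 2.09% in tumor and 3.37 to 4.51% in spleen. Tumors were dissociated with enzymes and spleens mechanically, so dissociation and tissue cannot be told apart. No pair of libraries shared more than 0.7% of the barcodes of the smaller one.

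As background, a naive CD8 T cell circulates between blood, spleen and lymph nodes, guided by receptors such as Ccr7 and S1pr1 and kept quiescent by factors such as Klf2, Lef1 and Tcf7. After antigen recognition it divides, takes up glucose, loads lytic granules with perforin and granzymes and secretes cytokines. In tumors, CD8 cells under lasting antigen stimulation also carry inhibitory receptors such as PD-1 and express transcription factors of the Nr4a family. The mouse granzyme genes b to g and n lie side by side with mast cell proteases on one chromosome.

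Of 12371 genes tested, 4857 were higher in tumor in all 4 pairs, 5083 were lower in all 4, and 2431 changed direction between pairs. A gene is called here when it has the same direction in all 4 pairs and a Benjamini-Hochberg adjusted p below 0.05 in the quasi-likelihood test of edgeR with the pair as a block. By this rule 4539 genes (36.7% of those tested) were higher in tumor and 4694 (37.9%) were lower. At least a 2-fold difference in every pair was found for 1795 of the higher genes (14.5% of those tested) and 1143 of the lower genes (9.24%). With so many calls, counts in gene lists are read against these shares. The median gene had a mean log2 ratio, tumor over spleen, of -0.02. With plain totals in place of TMM it was 0.06, and the share of calls that were higher went from 49.2 to 53.9%.

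Granzyme genes led the genes higher in tumor, ranked by their smallest difference over the 4 pairs. Most of them sit in one block, chr14:55941451-56262334 (GRCm38.p6), where 18 genes have rows in the tables. Of these, 8 were called higher in tumor (Mcpt8, Gzme, Gzmd, Gzmg, Gzmn, Gzmf, Gzmc and Gzmb) and 0 were called lower. The 200 bases before the RefSeq start site (GRCm38.p6) of 4 of them are shown because Gzmc, Gzmd and Gzmf were high in every tumor and near 0 in every spleen while Gzmb was detected in both tissues, and the capitals mark the longest run that Gzmc, Gzmd and Gzmf share.
Gzmc (chr14:56234658-56234857, minus strand): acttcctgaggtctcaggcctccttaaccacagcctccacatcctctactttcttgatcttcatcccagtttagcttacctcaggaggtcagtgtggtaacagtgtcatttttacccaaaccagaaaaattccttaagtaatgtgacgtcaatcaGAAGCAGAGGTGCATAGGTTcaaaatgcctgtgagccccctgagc
Gzmd (chr14:56132594-56132793, minus strand): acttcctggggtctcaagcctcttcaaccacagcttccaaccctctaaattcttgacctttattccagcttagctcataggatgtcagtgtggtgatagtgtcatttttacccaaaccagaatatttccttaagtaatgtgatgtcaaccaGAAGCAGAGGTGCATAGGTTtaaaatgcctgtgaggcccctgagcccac
Gzmf (chr14:56211408-56211607, minus strand): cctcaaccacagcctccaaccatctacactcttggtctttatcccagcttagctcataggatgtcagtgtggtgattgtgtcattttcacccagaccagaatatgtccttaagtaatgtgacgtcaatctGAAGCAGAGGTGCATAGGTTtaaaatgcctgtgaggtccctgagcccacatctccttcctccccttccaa
Gzmb (chr14:56262335-56262534, minus strand): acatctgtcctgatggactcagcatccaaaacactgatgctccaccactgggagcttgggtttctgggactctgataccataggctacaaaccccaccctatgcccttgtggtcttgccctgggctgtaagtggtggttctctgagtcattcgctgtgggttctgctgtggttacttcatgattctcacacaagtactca
The shared run of 20 bases, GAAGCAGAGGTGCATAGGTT, occurred on either strand in 5 of 27894 RefSeq promoter windows (250 bases before to 50 after the start), and these were the windows of Gzme, Gzmd, Gzmg, Gzmf and Gzmc. It was not in the window of Gzmb. Over the 250 bases before the start, those 5 promoters aligned with 83.3 to 95.2% identity between pairs of genes. The match describes related sequences and says nothing of binding.

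Gzmf stood at 3232, 3259.6, 4428 and 3178 CPM in the tumor libraries and at 0.163, 0.0573, 0.0678 and 0 in the spleen libraries, a total of 352719 UMIs against 5. Every tumor library lay far above every spleen library, and the mean log2 ratio was 15.32 ± 1.05 (SD over 4 pairs, as for every value after ± unless stated; adjusted p = 5.23e-09, edgeR). Gzmc stood at 2709, 2132, 2452 and 1584 against 0.381, 0.0573, 0.0678 and 0 (14.36 ± 1.21). Gzmd stood at 481, 281, 454 and 368 in tumor and had 0 UMIs in all spleen libraries, which makes it at least 8830.4-fold higher against a floor of 3 UMIs over the 4 libraries. Gzme at 214 to 412 and Gzmg at 27.8 to 113 also had no splenic UMI, and were at least 7047-fold and 1775-fold higher. Because these genes are near-identical copies, the authors' counting could have split or lost their UMIs, and the levels of single copies are uncertain.

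Gzmb, the main granzyme of activated killer cells, differed from this group in being present in spleen. It stood at 3435, 3494, 4167 and 4182 in tumor and 27.8, 12.8, 83.1 and 63.9 in spleen, with the Aire-/- spleens above the Aire+/+ spleens (6.68 ± 1.09, adjusted p = 3.16e-06). Of the neighbouring mast cell protease genes, Mcpt8 had 119 UMIs in tumor and 2 in spleen (mean log2 ratio 4.40, called higher). Others were at or near 0 in both tissues: Cma2, Mcpt1, Mcpt2 and Mcpt9 had no UMI, Mcpt4 had 3 in tumor and Cma1 had 3 in tumor and 9 in spleen.

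**Figure D1:**
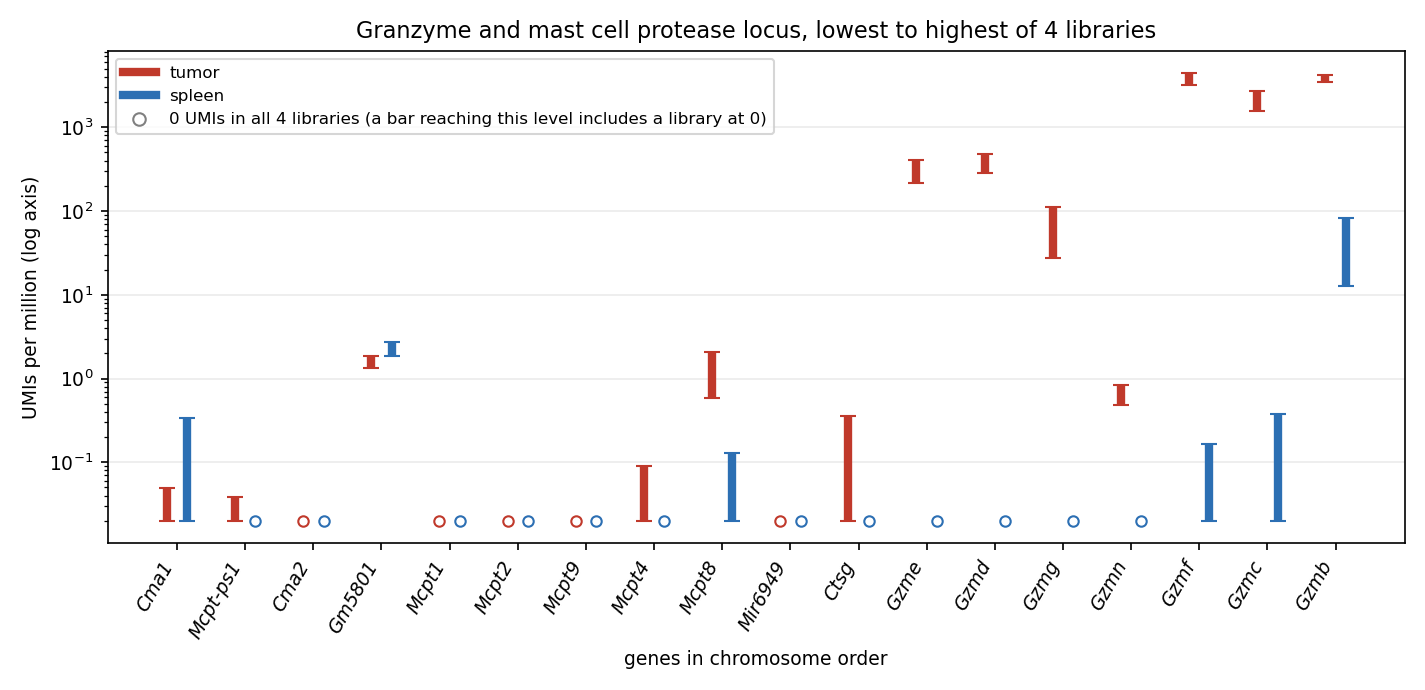
Level of each gene of the granzyme block in gated CD8 cells, in CPM on a log axis, with genes in chromosome order and bars from the lowest to the highest of 4 libraries of a tissue. Gzme, Gzmd, Gzmg, Gzmf and Gzmc stand between 27.8 and 4428 in tumor and at or below 0.381 in spleen, whereas Gzmb is present in both tissues.

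Tumor cells were deeper than spleen cells, so shares of cells were taken after thinning every cell to 2000 UMIs, which left out 0 tumor cells and at most 31 spleen cells of a library. A UMI of Gzmf was found in 19.5 to 24.7% of tumor cells and in 0% of spleen cells, where C1q-rich tumor barcodes gave 0 to 0.914%, and without thinning the shares were 28.6 to 35.0% and 0 to 0.0715%. A UMI of Gzmb was found in 61.6 to 70.0% of tumor cells and 1.63 to 5.50% of spleen cells, against 0.916 to 3.66% in C1q-rich tumor barcodes and 0.0588 to 0.145% in Cd79a-rich spleen barcodes (75.3 to 80.5% and 2.38 to 7.30% without thinning). Gzmf was thus detected in a minority of tumor cells and Gzmb in a majority.

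Of the 23 cytotoxic granule and death ligand genes, 20 were higher in tumor, 2 were lower and 1 was not called, with a median log2 ratio of 3.04. Prf1, the pore-forming perforin, was at 583, 466, 578 and 595 in tumor and 39.7, 37.4, 49.4 and 50.5 in spleen (3.66 ± 0.15, adjusted p = 1.81e-08). Fasl, the death ligand, was at 185 to 225 against 5.83 to 13.3 (4.54 ± 0.54), and Serpinb9, which shields the killer cell from granzyme B, at 246 to 383 against 11.1 to 20.2 (4.45 ± 0.47). Nkg7, a granule protein, was at 2851 to 3434 against 693 to 901 (2.0 ± 0.18). The exceptions were Gzmm and Lamp1. Gzmm was at 4.28, 3.51, 5.29 and 4.86 in tumor and 30.2, 21.2, 31.1 and 26.1 in spleen (-2.59 ± 0.17, adjusted p = 1.44e-07), the only granzyme tested that was lower in tumor, and Lamp1, a lysosomal membrane protein, was lower by a small amount (-0.29 ± 0.13, adjusted p = 0.00224).

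Gzma and Gzmk were higher in tumor but varied in spleen. Gzma was at 386, 532, 1009.5 and 1184 in tumor and 87.0, 86.6, 583 and 459 in spleen (1.73 ± 0.81, adjusted p = 5.33e-04). Gzmk was at 59.3, 82.9, 72.0 and 121 in tumor and 8.72, 9.85, 46.1 and 43.2 in spleen (1.99 ± 1.13, adjusted p = 0.00166). For both genes the Aire-/- spleens lay above the Aire+/+ spleens, and for Gzma they overlapped the tumor libraries. Among cells with a UMI of Ccl5, neither had one direction in all pairs, so neither was called (0.55 ± 0.67 for Gzma and 0.79 ± 0.88 for Gzmk).

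The naive and recirculation genes moved the other way as a block. Of 23 tested, 22 were lower in tumor, 20 of them at least 2-fold in every pair, 0 were higher, and the median log2 ratio was -3.25. S1pr1, the receptor for exit from tissues, was at 23.1, 20.3, 26.7 and 37.3 in tumor and 272, 273, 251 and 286 in spleen (-3.37 ± 0.36, adjusted p = 2.65e-07), with no overlap between the groups. The transcription factor Lef1 was at 20.5, 14.7, 21.0 and 19.8 against 455, 522, 475 and 480.3 (-4.68 ± 0.32), and its relative Tcf7 was at 22.1, 14.8, 21.7 and 19.9 against 332, 337, 304 and 319.5 (-4.06 ± 0.31). Both were lower in every tumor library than in any spleen library. Klf2, which drives S1pr1, was lower by a smaller ratio (282 to 394 against 1031 to 1197, -1.67 ± 0.33), as did Il7r, the interleukin-7 receptor (221 to 279 against 476 to 533, -1.05 ± 0.21). Satb1, Foxp1 and Bach2, further regulators of quiescence, were also lower (-1.53 ± 0.17, -2.16 ± 0.14 and -1.85 ± 0.15). Fam101b and Igfbp4, which mark naive CD8 cells, were at 2.43 to 5.04 against 159 to 177 (-5.42 ± 0.41) and 5.94 to 10.4 against 182 to 245 (-4.73 ± 0.51).

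Ccr7 was the exception. This lymph node homing receptor was at 417, 476, 459.7 and 304 in tumor and 501, 490.5, 458 and 487 in spleen, and the groups overlapped (-0.25 ± 0.31, adjusted p = 0.0679, not called). After thinning, a Ccr7 UMI was found in 14.5 to 26.0% of tumor cells and 53.1 to 58.6% of spleen cells (21.7 to 38.9% and 80.2 to 86.9% without thinning). C1q-rich tumor barcodes gave 0.548 to 2.45%. For Tcf7 the shares were 3.34 to 5.05% in tumor and 41.6 to 47.2% in spleen, against 0 to 0.49% in C1q-rich barcodes.

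**Figure D2:**
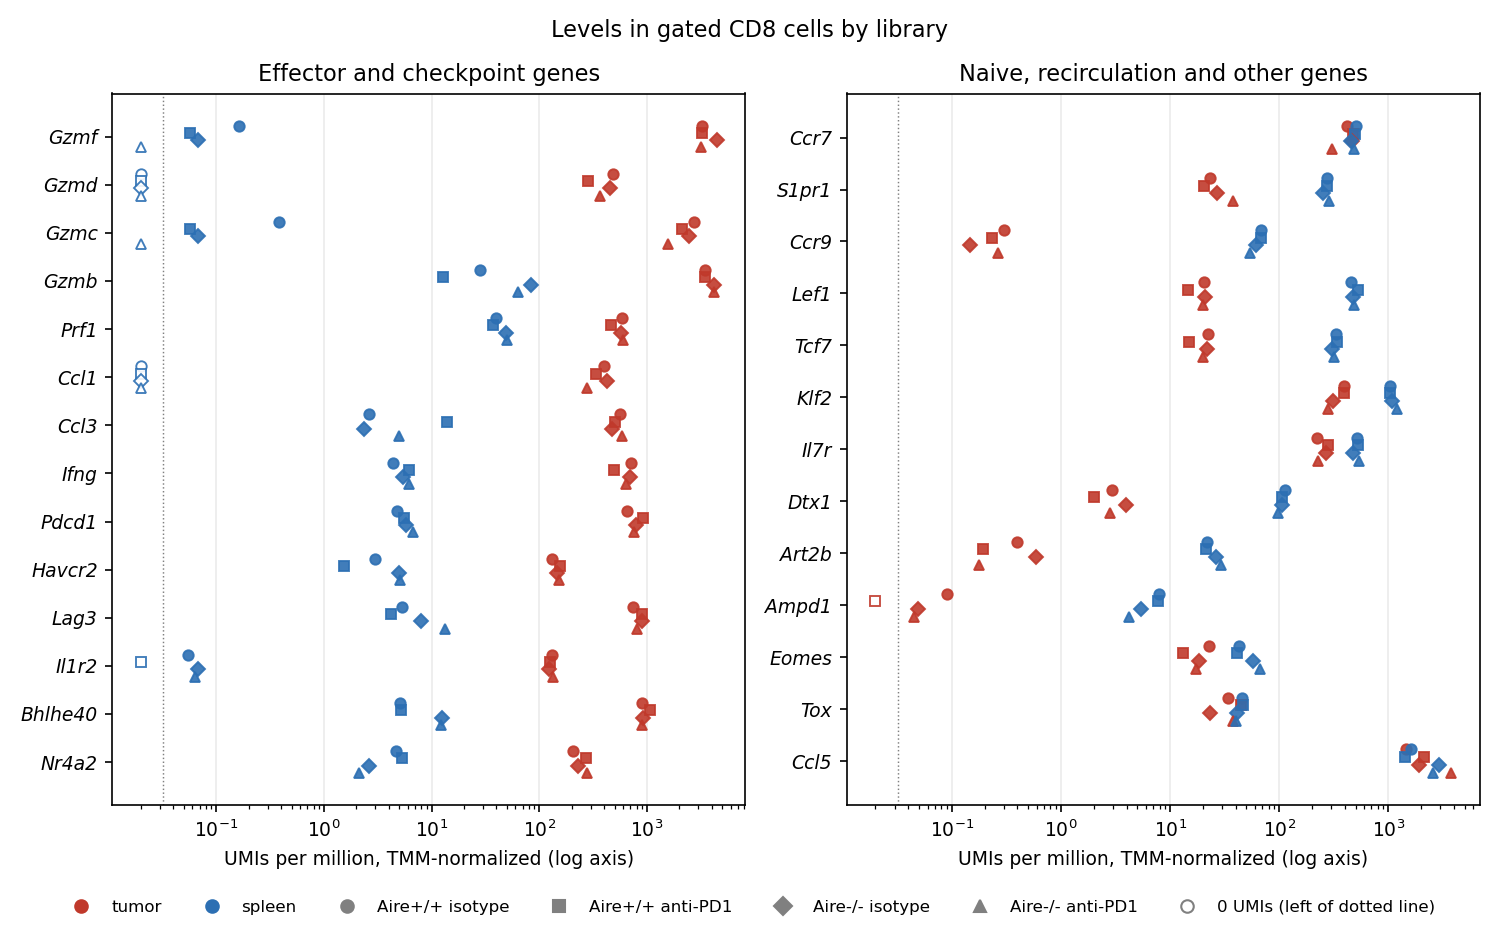
Levels of 27 genes in the 8 libraries of gated CD8 cells, in CPM on log axes, with red for tumor, blue for spleen and a marker shape for each condition. Open markers left of the dotted line are libraries with 0 UMIs. The groups lie apart for every gene on the left, and they overlap for Ccr7, Tox and Ccl5 on the right.

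Beyond the granzymes, the genes with the largest smallest difference over the 4 pairs included secreted factors and receptors. Ccl1, the ligand of Ccr8, was at 397, 336, 423 and 275 in tumor with 0 splenic UMIs, at least 7953-fold higher. Serpine2, a protease inhibitor, was at 80.6 to 164 against 0.0573 to 0.271 (9.63 ± 0.37). Il1r2, a decoy receptor for interleukin-1, was at 132, 126, 122 and 135 with 3 UMIs in all spleens together, a pooled ratio of 2855 (95% exact counting interval 977 to 13846). Areg, an EGF receptor ligand, had a pooled ratio of 1814 (620.4 to 8796) at 43.6, 87.6, 96.3 and 119 in tumor. Spp1, or osteopontin, was at 175, 172, 253 and 231 against 0.163, 0.172, 0.0678 and 0 (10.92 ± 1.45). Ccr8 itself was at 153, 214, 198 and 157 against 0.708, 0.0573, 2.03 and 4.21 (7.70 ± 2.60).

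Several genes with no splenic UMI are not known chiefly as T cell genes. Gldc, of the mitochondrial glycine cleavage system, was at 33.3, 33.9, 23.2 and 30.4 in tumor and at least 679-fold higher. Slc17a6, a vesicular glutamate transporter, was at 22.2 to 37.8 (at least 602-fold), Ccdc184 at 20.2 to 81.6 (at least 1155-fold), Rgs8 at 13.3 to 21.3 (at least 389.5-fold), the protease Bace2 at 9.24 to 14 (at least 272-fold) and Gm6634 at 6.59 to 7.72 (at least 161-fold). Igfbp7 was at 41.7 to 69.1 with 2 splenic UMIs, a pooled ratio of 1854 (513 to 15312). Klrb1b, a lectin receptor, was at 11.2 to 26.8 with 1 splenic UMI. In all, 157 of the 4539 genes called higher had no splenic UMI and 22 of the 4694 called lower had no tumor UMI. Tumor libraries held 20209193 to 32110043 gated UMIs and spleen libraries 15196257 to 19023371, so 0 UMIs is reached more easily in spleen.

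C1q-rich tumor barcodes gave a yardstick for RNA of macrophages. Of 18 genes named for their size of difference, 14 had every gated tumor library above all C1q-rich values. The 4 others were Il1r2 (194 to 246 CPM in C1q-rich barcodes), Spp1 (114 to 946), Areg (42.9 to 119) and Klrb1b (33.0 to 80.6), which macrophage-like barcodes carried at a like or higher level. The gated cells held 1.30 to 2.35 of Lyz2 against 1952 to 3157 in those barcodes. By contrast Gzmf was at 0.379 to 18.2 and Ccl1 at 0 to 2.71 in the C1q-rich barcodes.

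Among genes lower in tumor, Ccr9, the gut and thymus homing receptor, stood first by the same ranking. It was at 0.303, 0.231, 0.147 and 0.268 in tumor and 68.2, 68.2, 61.6 and 54.5 in spleen (-7.97 ± 0.41, adjusted p = 5.77e-09), and after thinning its UMI was found in 0 to 0.0973% of tumor cells and 9.66 to 13.2% of spleen cells. Art2b, an ecto-ADP-ribosyltransferase of resting T cells, was at 0.394, 0.193, 0.588 and 0.179 against 21.7, 21.3, 26.5 and 29.0 (-6.25 ± 0.81). Dtx1, a Notch pathway ubiquitin ligase, was at 2.91, 2.01, 3.92 and 2.81 against 113, 106, 107 and 96.6 (-5.21 ± 0.40), and the AMP deaminase Ampd1 at 0.091, 0, 0.049 and 0.0446 against 7.90, 7.73, 5.42 and 4.21 (-6.77 ± 1.26). The groups lay apart for each of these 4 genes. Tmem108 was at 1.87 to 3.28 in tumor and 75.5 to 99.2 in spleen (-5.05 ± 0.42), Slc16a5 at 0.116 to 0.58 and 21.3 to 25.8 (-6.46 ± 0.85), Gm14085 at 0.58 to 1.0 and 40.9 to 52.8 (-5.89 ± 0.46) and the potassium channel Kcna2 at 0.0386 to 0.294 and 7.52 to 12.0 (-5.80 ± 1.27). H2-Ob, of a modulator of peptide loading, was at 0.536 to 1.0 and 25.1 to 27.4 (-5.24 ± 0.36), and G0s2, an inhibitor of lipolysis, at 0.134 to 0.685 and 14.7 to 19.0 (-5.63 ± 0.96). Cnn3 (-4.94 ± 0.26), Ddc (-5.04 ± 0.38) and the receptor Gprc5b (-7.47 ± 1.69) completed this group. Gprc5b had 5, 0, 0 and 0 UMIs in tumor, so the size of its ratio is uncertain.

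Hbb-bs, a hemoglobin chain, met the same rule through uneven levels. It was at 166, 0.63, 1.29 and 1.78 in spleen and 0.0303, 0, 0 and 0 in tumor, with the Aire+/+ isotype spleen far above the others (-7.26 ± 3.09, and -5.73 without that pair, adjusted p = 6.04e-04). With every cell weighted equally and 5 added to each mean, it was not called (-1.29, adjusted p = 0.0689, limma). The added 5 by itself shrinks ratios between levels as low as these. Hbb-bt (51.2, 0.172, 0.745 and 0.319) and Hba-a1 (41.1, 0.172, 0.407 and 0.446) followed it and had no tumor UMI. Erythroid and platelet markers summed to 0.231 to 0.402 in tumor and 1.6 to 272 in spleen. Their part in other splenic levels was not tested.

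Inhibitory receptors were higher in tumor for 13 of 16 tested genes, 10 of them at least 2-fold in every pair, with a median log2 ratio of 2.81 and 3 genes lower. In the CD45+ sort, where 25% of all genes were higher and 21.9% lower, 10 of 16 were higher and 1 lower, with a median of 1.54. Pdcd1, which encodes PD-1, was at 651, 912, 792 and 755 in tumor and 4.74, 5.55, 5.76 and 6.76 in spleen (7.08 ± 0.23, adjusted p = 5.71e-09). Every tumor library lay far above every spleen library, with log2 ratios of 7.09, 7.35, 7.09 and 6.8 over the pairs. Ctla4 was at 471, 593, 509 and 522 against 5.67, 5.96, 5.22 and 6.95 (6.46 ± 0.19). Lag3 was at 734, 899, 900.0 and 809.6 against 5.34, 4.24, 8.0 and 13.3 (6.89 ± 0.74). Both had no overlap between tissues. Havcr2, or Tim-3, was at 132, 156, 146 and 153 against 3.0, 1.55, 4.95 and 5.04 (5.47 ± 0.82). Tigit (4.97 ± 0.57), Cd244 (5.02 ± 0.53) and the ATP-degrading enzyme Entpd1 (4.70 ± 0.53) were also higher. Cd96 was higher by a small and even amount (0.42 ± 0.05). The 3 lower genes were Btla (2.43, 3.12, 2.01 and 2.14 against 15, 17.6, 11.7 and 11.9, -2.52 ± 0.07), Cd5, a brake on T cell receptor signals (-0.32 ± 0.22), and Lair1 (-0.75 ± 0.22). Without the Aire-/- anti-PD1 pair Cd5 was about as low (-0.31, adjusted p = 0.034, edgeR) but did not meet the rule of one direction in all pairs, so it was not called. The direction for Lair1 turned without the gate (1.09) and in the CD45+ sort (0.32). After thinning, a Pdcd1 UMI was found in 57.6 to 72.0% of tumor cells and 0.644 to 1.07% of spleen cells, with 0.262 to 1.96% in C1q-rich barcodes (80.2 to 89.7% and 1.82 to 2.83% without thinning).

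Costimulatory receptors moved both ways, with 10 of 14 higher, 3 lower and a median of 2.23. Tnfrsf9, or 4-1BB, was at 1233, 1275, 1355 and 1088 against 18.5, 14.5, 14.2 and 26.2 (6.11 ± 0.54). Tnfrsf4, or OX40, was at 330.4, 334, 301 and 243 against 2.94, 2.12, 1.69 and 1.47 (7.22 ± 0.29). Icos (3.70 ± 0.23), Tnfrsf18 (2.95 ± 0.22) and Cd28 (1.45 ± 0.19) were higher too. The receptors lower in tumor were Slamf6 (12.3, 11.1, 13.6 and 12.6 against 98.4, 108, 94.1 and 104, -3.03 ± 0.20), Tnfrsf14 (-1.33 ± 0.13) and Cd27 (-0.68 ± 0.11), of which Slamf6 marks stem-like CD8 cells.

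Of 28 effector and exhaustion transcription factors tested, 19 were higher, 6 lower and 3 not called, with a median of 2.13. Bhlhe40 was at 889.9, 1056, 921 and 904 in tumor and 5.12, 5.15, 12.4 and 12.3 in spleen (6.88 ± 0.78, adjusted p = 3.56e-07). The orphan receptors Nr4a1 (234, 378, 320.2 and 478 against 13.4, 15.1, 8.67 and 10.6, 4.86 ± 0.60), Nr4a2 (6.14 ± 0.72) and Nr4a3 (4.24 ± 0.36), which follow T cell receptor signals, were higher in every pair. Irf8 (5.09 ± 0.65), Irf4 (4.16 ± 0.43), Prdm1 (3.61 ± 0.77), the Notch effector Rbpj (3.35 ± 0.13), Hif1a (3.12 ± 0.25) and Id2 (2.64 ± 0.38) rose as well. Tbx21, or T-bet, was at 122, 154, 131 and 133 against 21.9, 20, 43.8 and 34.4 (2.24 ± 0.60).

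Eomes and Tox, often named with exhaustion, were on the lower side. Eomes was at 22.9, 13.1, 18.5 and 17.4 in tumor and 43.2, 40.6, 57.1 and 66.8 in spleen (-1.53 ± 0.44, adjusted p = 3.82e-05), with no overlap. Tox was at 33.8, 44.3, 23 and 37.8 and 46.0, 47.0, 40.8 and 40.0, and although it was lower in each pair, the groups overlapped and the difference was small (-0.36 ± 0.35, adjusted p = 0.027), and its call was lost without either isotype pair. In cells with a UMI of Ccl5, Tox was not called (-0.11 ± 0.41). Id3 (8.22, 6.56, 12.7 and 8.66 against 80.1, 77.1, 68 and 89.5, -3.15 ± 0.51), Runx1 (-1.61 ± 0.16), Myb (-1.58 ± 0.47) and Ikzf3 (-0.36 ± 0.11) were lower. Batf (0.98 ± 0.23) and Runx3 (0.54 ± 0.14) were higher by less than most of the list.

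Secreted cytokines and chemokines had the highest list median, 5.26, with 23 of 27 higher and 2 lower. Ifng was at 713, 498, 695 and 635 in tumor and 4.36, 6.18, 5.42 and 6.18 in spleen (6.83 ± 0.44, adjusted p = 2.97e-08). Ccl3 was at 559, 509, 478 and 582 against 2.62, 14, 2.37 and 4.97 (6.85 ± 1.18). Ccl4 was at 1559.8, 1596, 1539.8 and 1803 against 22.3, 50.4, 26.5 and 31.9 (5.70 ± 0.49). Both attract leukocytes and both rose. Ccl5, another such chemokine, did not. It was at 1435, 2102, 1922 and 3743 in tumor and 1609, 1419, 2891 and 2552 in spleen (0.09 ± 0.57, adjusted p = 0.663), with overlapping groups and opposite signs between pairs. Cxcl10, an interferon-induced chemokine, was at 88.0, 95, 125 and 268 against 0.272, 0.515, 0.474 and 1.21 (7.84 ± 0.32).

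Growth factors for myeloid and bone cells were among them. Csf1, the macrophage growth factor, was at 164, 254, 196 and 198 against 1.36, 1.49, 4.07 and 5.93 (6.23 ± 1.09). Csf2, the granulocyte and macrophage growth factor, was at 51.2, 55.5, 30.8 and 30.0 against 0.327, 0.286, 0.339 and 0.319 (6.86 ± 0.54). Tnfsf11, or RANKL, was at 128, 129, 148 and 167 against 0.817, 0.458, 0.407 and 0.574 (7.95 ± 0.49). Penk, the enkephalin precursor, was at 136, 111, 131 and 97.9 against 0.0545, 0.172, 1.15 and 0 (9.55 ± 2.10). Xcl1, which attracts cross-presenting dendritic cells, was at 259.6 to 413 against 27.2 to 60.2 (3.01 ± 0.69), Tnf at 40.2 to 73.6 against 7.30 to 8.70 (2.59 ± 0.39) and Tgfb1 at 297 to 395 against 95.2 to 110.2 (1.80 ± 0.23). Il2 was low in both tissues and uneven in tumor, at 7.52, 37.4, 2.69 and 8.21 against 0.817, 0.573, 0.474 and 0.637 (3.79 ± 1.53). Ltb, lymphotoxin beta (-0.46 ± 0.10), and Tnfsf8, the CD30 ligand (15.8, 9.60, 11.9 and 7.28 against 54.4, 50.8, 45.7 and 51.6, -2.24 ± 0.47), were lower in tumor.

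Cytokine receptors were higher in 13 of 25 and lower in 12, where 36.7% of all genes tested were higher and 37.9% lower. On the higher side were Il2ra (118, 116, 119 and 101 against 3.27, 1.55, 2.24 and 3.51, 5.48 ± 0.60), Il12rb2 (5.05 ± 0.48), Il2rb (1.99 ± 0.19), Il10ra (1.88 ± 0.32) and Ifngr1 (1.49 ± 0.18). On the lower side were Il6ra (4.85, 3.32, 4.75 and 3.66 against 75.9, 79.4, 69.7 and 79.9, -4.21 ± 0.35) and its partner Il6st (-3.04 ± 0.24), Il27ra (-1.57 ± 0.17), Tgfbr1 (-1.75 ± 0.18) and Il7r, given above. The chains of the interferon-gamma receptor moved apart: Ifngr1 was at 532 to 688 in tumor and 193 to 259 in spleen, whereas Ifngr2, the signalling chain, was at 3.16, 2.51, 4.65 and 4.28 against 26.3, 28.3, 27.6 and 27.1 (-2.94 ± 0.42, adjusted p = 1.0e-06).

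Residency and retention genes were higher in 12 of 14, with 1 lower and a median of 3.01. Rgs1, which dampens chemokine receptor signals, was at 989, 877, 672 and 650.1 against 8.83, 9.51, 10.0 and 10.4 (6.34 ± 0.39), and Litaf at 294 to 394 against 2.57 to 5.23 (6.33 ± 0.51). Cxcr6 was at 771, 738, 793 and 865 against 88.0, 73.0, 110.1 and 132 (3.01 ± 0.28), Cd69, which holds S1pr1 inside the cell, at 453 to 613 against 99.3 to 114 (2.29 ± 0.14), and the collagen receptor chain Itga1 at 26.8 to 33.0 against 1.15 to 3.25 (3.90 ± 0.69). Cdh1, E-cadherin (3.92 ± 0.43), and Isg20 (4.28 ± 0.40) rose too. Itgae, or CD103, the E-cadherin receptor, was at 17.4, 29.0, 43.9 and 83.4 in tumor and 52.6, 61.8, 55.6 and 76.5 in spleen, lower in tumor in 3 pairs and slightly higher in the Aire-/- anti-PD1 pair. Crtam was lower by a small amount (-0.28 ± 0.19), a direction that reversed without cycling cells and a call lost without the Aire-/- anti-PD1 pair.

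Among chemokine and lipid mediator receptors, 9 of 20 were higher and 8 lower, where 36.7% of all genes tested were higher and 37.9% lower. Besides Ccr8, tumor CD8 cells were higher in Gpr183 (1.72 ± 0.29), Cxcr4 (0.99 ± 0.46) and Cx3cr1 (65.8, 81.1, 67.7 and 58.0 against 6.21, 8.99, 32.1 and 18.3, 2.33 ± 1.14). They were lower in S1pr5 (0.516, 0.81, 0.588 and 0.179 against 5.23, 5.27, 24.5 and 7.78, -4.15 ± 1.36) and S1pr4 (-1.28 ± 0.11). Cxcr3 was slightly lower (-0.47 ± 0.23, adjusted p = 0.00128), but higher after thinning to equal depth (0.30), without cycling cells (0.16) and with every cell weighted equally (0.34), and lower in Ccl5-positive cells (-1.48). Of 21 integrin and adhesion genes, 12 were higher and 7 lower. Alcam (4.20 ± 0.78), Itgav (3.11 ± 0.26) and Cd44 (178 to 220.2 against 21.1 to 32.6, 2.95 ± 0.42) rose, and Icam2 (-3.39 ± 0.21), Pecam1 (-2.84 ± 0.18), Itga4 (-2.64 ± 0.47) and Itgb7 (-1.63 ± 0.31), the last pair forming the gut homing integrin, fell.

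Of 18 lectin receptors of the NK gene complex, 9 were higher and 7 lower, where 36.7% of all genes tested were higher and 37.9% lower. After thinning to equal depth 8 of 15 tested were higher and 1 lower, where 3539 of all 10935 genes tested were higher and 3438 lower. In the CD45+ sort 6 of 15 were higher and 0 lower, where 25% of all genes tested were higher and 21.9% lower. Klrc1, or NKG2A, was at 908, 1023, 1037 and 933 against 31.7, 22.2, 81.9 and 75.9 (4.41 ± 0.93), its partner Klrd1 at 887 to 1121 against 246 to 292 (1.92 ± 0.16) and Klrk1, or NKG2D, at 478 to 579 against 21.0 to 69.9 (3.77 ± 0.85). Klrg1, a marker of terminal effector cells, was at 4.46, 7.44, 4.21 and 4.46 in tumor and 4.20, 4.24, 39.6 and 11.2 in spleen and was not called (-0.92 ± 1.78, adjusted p = 0.146). Its splenic level was highest in the Aire-/- isotype library. The Klra genes are near-identical copies and single values are uncertain. Klra5 was at 28.8, 11.7, 21.7 and 10.1 against 0, 0.115, 0.542 and 0.574 (6.43 ± 2.59).

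T cell receptor signalling genes moved little and both ways, with 12 of 30 higher, 15 lower and a median of -0.15. Over all genes tested 36.7% were higher and 37.9% lower. With plain totals 12 of the list were higher and 11 lower, and after thinning 12 and 10. Zap70, the kinase recruited to the stimulated receptor, was higher (0.87 ± 0.14), as were the adaptors and brakes Sla (1.12 ± 0.18) and Cblb (0.93 ± 0.10). Lck, the kinase on CD8, was not called (-0.15 ± 0.15, adjusted p = 0.0678). Lower were Cd247, the zeta chain (-0.65 ± 0.11), Prkcq (-0.90 ± 0.08), Lat (-0.25 ± 0.13), Dgka, a diacylglycerol kinase that limits signalling (62.0, 60.6, 71.2 and 75.4 against 335, 334, 323 and 325, -2.30 ± 0.18), and Trat1 (-3.56 ± 1.15). Of 19 JAK-STAT genes, 12 were higher and 5 lower. The feedback inhibitors Cish (236, 269, 245 and 272 against 6.65, 8.42, 9.28 and 10.8, 4.88 ± 0.23), Socs2 (4.43 ± 0.15) and Socs1 (2.02 ± 0.19) and the factor Stat3 (2.01 ± 0.22) rose, while Jak1 (-0.71 ± 0.09) and Pim2 (-1.02 ± 0.37) fell.

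Immediate early and AP-1 genes were higher in 30 of 33 and lower in 1, with a median of 2.22. Fos was at 254, 182, 198 and 284 against 9.64, 9.68, 5.96 and 8.86 (4.75 ± 0.38), Junb at 1931 to 2303 against 176 to 204 (3.5 ± 0.18), Fosb at 68 to 109.8 against 0.51 to 1.20 (6.70 ± 0.70) and Atf3 at 105, 109, 94.9 and 107 against 0.872, 0.115, 0.0678 and 0 (9.5 ± 2.0). The phosphatases Dusp1 (5.13 ± 0.30) and Dusp4 (49.5, 63.7, 44.6 and 49.7 against 0.163, 0.401, 0.203 and 0.382, 7.42 ± 0.48), Klf4 (5.98 ± 0.11) and the NF-kappaB inhibitors Tnfaip3 (4.41 ± 0.19) and Nfkbia (1.67 ± 0.26) rose with them. Myc was the gene of this list that was lower (63.7, 36.9, 32.0 and 34.5 against 94.4, 89.7, 69.8 and 81.6, -1.05 ± 0.33). Handling of cells can induce these genes within minutes, and for them dissociation and tissue cannot be told apart. Heat shock and chaperone genes, some of which handling can also induce, were higher in 5 of 15 and lower in 2, with a median of 0.20. Over all genes tested 36.7% were higher and 37.9% lower. In this list the endoplasmic reticulum chaperone Hspa5 rose (1.69 ± 0.24) and the mitochondrial Hspe1 fell (-0.68 ± 0.09).

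Glycolysis and hypoxia genes were higher in 22 of 24 and lower in 2, with a median of 2.21. Tpi1 was at 769, 623, 657 and 515 in tumor and 47.8, 46.3, 45.9 and 44.9 in spleen (3.78 ± 0.20, adjusted p = 2.97e-08), Gapdh at 3174 to 4555 against 644 to 764 (2.43 ± 0.26) and Ldha, which makes lactate, at 1665 to 2083 against 450.0 to 516 (1.92 ± 0.14). The lactate exporter Slc16a3 was at 89.3, 74.4, 85.6 and 59.5 against 0.545, 0.458, 0.745 and 1.08 (6.77 ± 0.72), the glucose transporter Slc2a1 at 94.1 to 117 against 20.7 to 24.5 (2.29 ± 0.23), Hk2 at 32.1 to 38.4 against 1.56 to 3.54 (3.74 ± 0.47) and the hypoxia-induced mitophagy factor Bnip3 at 112 to 147 against 5.44 to 5.93 (4.49 ± 0.24). Pdk1 (30.3, 21.4, 24.3 and 19.6 against 81.0, 93.1, 67.1 and 65.5, -1.69 ± 0.32) and the monocarboxylate transporter Slc16a1 (-0.44 ± 0.07) were lower. The letters ACGTG, the core bound by HIF, occurred on either strand in 13 of the 23 promoter windows of this list that RefSeq gave (56.5%), against 19.8% of all 27894 windows and 26.6% of the windows of genes tested, of which 79.5% had one. They were also in 12 of the 25 windows given for the 33 immediate early and AP-1 genes. Of genes at least 2-fold higher in every pair, 330 of 1375 windows held them.

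Other metabolic and housekeeping lists moved in both directions. Nuclear subunits of oxidative phosphorylation were higher in 60 of 76 with a median of 0.35, whereas all 13 genes of the mitochondrial genome were lower with a median of -1.34. Cytosolic ribosomal protein genes were lower in 81 of 87, with 1 higher and a median of -0.67. Proteasome subunits were higher in 33 of 41 with a median of 0.41, and cholesterol and lipid synthesis genes in 17 of 24 with a median of 0.54. Of 15 amino acid transporter and polyamine genes, 9 were higher and 3 lower, and Odc1, which starts polyamine synthesis, was at 347, 388, 447 and 479 against 30.9, 36.1, 31.7 and 31.4 (3.66 ± 0.25) while Srm, the next step, was lower (-0.89 ± 0.29). S100, annexin and galectin genes were higher in 20 of 21 with a median of 2.16. S100a6 was at 3018, 3019, 3528 and 3182 against 196, 138, 396 and 505 (3.55 ± 0.80), Lgals1 at 2229.8 to 2419.7 against 255 to 637 (2.53 ± 0.66), Lgals3 at 696 to 971 against 33.6 to 141 (3.66 ± 0.84) and vimentin at 3551 to 4103 against 422 to 657 (2.84 ± 0.34, Vim). Of 20 survival and apoptosis genes, 13 were higher and 4 lower. The anti-apoptotic Bcl2a1d (293 to 361 against 5.61 to 7.78, 5.65 ± 0.28), whose family holds near-identical copies, and the pro-apoptotic Bcl2l11 (1.56 ± 0.17) rose, and Bcl2 fell (-0.56 ± 0.29).

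Cell cycle genes were higher in tumor. Of 53 G2 and M phase genes, 47 were higher and 3 lower with a median of 2.50, and of 43 S phase genes, 39 were higher and 2 lower with a median of 1.47. Top2a was at 228, 203, 219.6 and 175 in tumor and 8.61, 7.04, 41.8 and 20.2 in spleen (3.77 ± 1.21, adjusted p = 7.01e-05). Mki67 was at 74.5, 68, 70.6 and 54.1 and 2.67, 2.81, 21.4 and 7.84 (3.47 ± 1.47). Cdk1, the mitotic kinase, was at 50.4, 47.4, 48.1 and 37.9 and 1.63, 1.83, 8.67 and 4.65 (3.77 ± 1.21), and Ube2c at 96.0 to 116 and 2.52 to 19.9 (4.17 ± 1.37). The tumor libraries lay close together and the spleens did not, with the Aire-/- isotype spleen highest for each of these 4. The replication genes Mcm6 (1.11 ± 0.16) and Pcna (1.06 ± 0.15) differed less. The 200 bases before the start sites of Cdk1 and Top2a are shown because the G2 and M phase genes moved together, with capitals for CCAAT and TTTGAA on either strand.
Cdk1 (chr10:69352913-69353112, minus strand): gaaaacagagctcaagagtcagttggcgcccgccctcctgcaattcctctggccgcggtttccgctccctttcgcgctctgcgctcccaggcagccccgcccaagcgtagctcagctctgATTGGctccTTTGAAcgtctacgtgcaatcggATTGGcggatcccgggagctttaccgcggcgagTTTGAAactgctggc
Top2a (chr11:99024190-99024389, minus strand): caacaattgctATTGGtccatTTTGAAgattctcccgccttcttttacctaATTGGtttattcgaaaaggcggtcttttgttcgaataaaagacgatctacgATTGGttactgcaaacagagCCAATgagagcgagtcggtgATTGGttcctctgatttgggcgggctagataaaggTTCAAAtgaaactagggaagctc
TTTGAA, the cell cycle homology region, occurred on either strand in 32 of the 46 G2 and M phase promoter windows that RefSeq gave (69.6%) against 18.1% of all 27894 windows and 12.1% of the windows of genes tested. CCAAT occurred in 76.1%, 38.2% and 39.5%. These are shares of windows holding the letters, with no test. When cells with a UMI of Mki67 or Top2a were left out, 4185 genes were higher in tumor and 4353 lower, of which 3864 and 4097 were also called with them. Of the genes called higher with them, 31 were called lower without them, and 1 gene went the other way.

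Type I interferon response genes were higher in 33 of 35, 23 of them at least 2-fold in every pair, with 0 lower and a median of 1.81. Isg15, a ubiquitin-like protein, was at 313, 428, 549 and 595 in tumor and 59.0, 46.3, 51.8 and 41.9 in spleen (3.21 ± 0.60, adjusted p = 3.79e-06). Ifit1, which binds viral RNA, was at 75.1, 109, 154 and 196 against 27.2, 28.8, 25.4 and 20.8 (2.30 ± 0.78). Its relative Ifit3 was at 129, 173, 220.1 and 254 against 24.7, 22.7, 26.2 and 23.3 (2.96 ± 0.44). Both showed the same order of tumor libraries, with the Aire-/- anti-PD1 tumor highest. Rsad2 (3.89 ± 0.67), Ifitm1 (2217 to 3447 against 64.1 to 228, 4.58 ± 0.72), Ifitm3 (6.05 ± 0.80), Ly6a, or Sca-1 (1066 to 1754 against 66.5 to 142, 3.95 ± 0.30), and Bst2 (1.65 ± 0.28) were higher. Irf9, a subunit of the factor that carries the signal, was not called (0.22 ± 0.20). The promoter of Ifit3 is shown with matches on either strand to a core of the interferon-stimulated response element (GAAA, any 2 bases, GAAA) in capitals.
Ifit3 (chr19:34583329-34583528, plus strand): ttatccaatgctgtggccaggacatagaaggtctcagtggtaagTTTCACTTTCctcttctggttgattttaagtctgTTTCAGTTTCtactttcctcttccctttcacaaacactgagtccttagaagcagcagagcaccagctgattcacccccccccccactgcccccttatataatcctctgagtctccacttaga
These letters occurred in 3.5% of all 27894 windows. Only 68.6% of the interferon list had a window, so its share is not given.

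Genes that mainly follow interferon-gamma differed less. Of 31 in the interferon-gamma and MHC class I list, 17 were higher and 5 lower, with a median of 0.37. H2-K1 (0.50 ± 0.11), B2m (0.63 ± 0.04) and the peptide transporter Tap1 (0.98 ± 0.09) were higher by small and even amounts. Cd274, or PD-L1, was at 44.9, 49.2, 57.7 and 62.2 against 11, 12.0, 11.9 and 11.6 (2.19 ± 0.19). The GTPases Tgtp1 (19.8, 18.7, 30.4 and 36.7 against 82.7, 66.6, 76.3 and 81.0, -1.59 ± 0.43) and Ifi47 (-0.72 ± 0.25), which interferon-gamma induces in many cells, were lower in tumor.

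**Figure D3:**
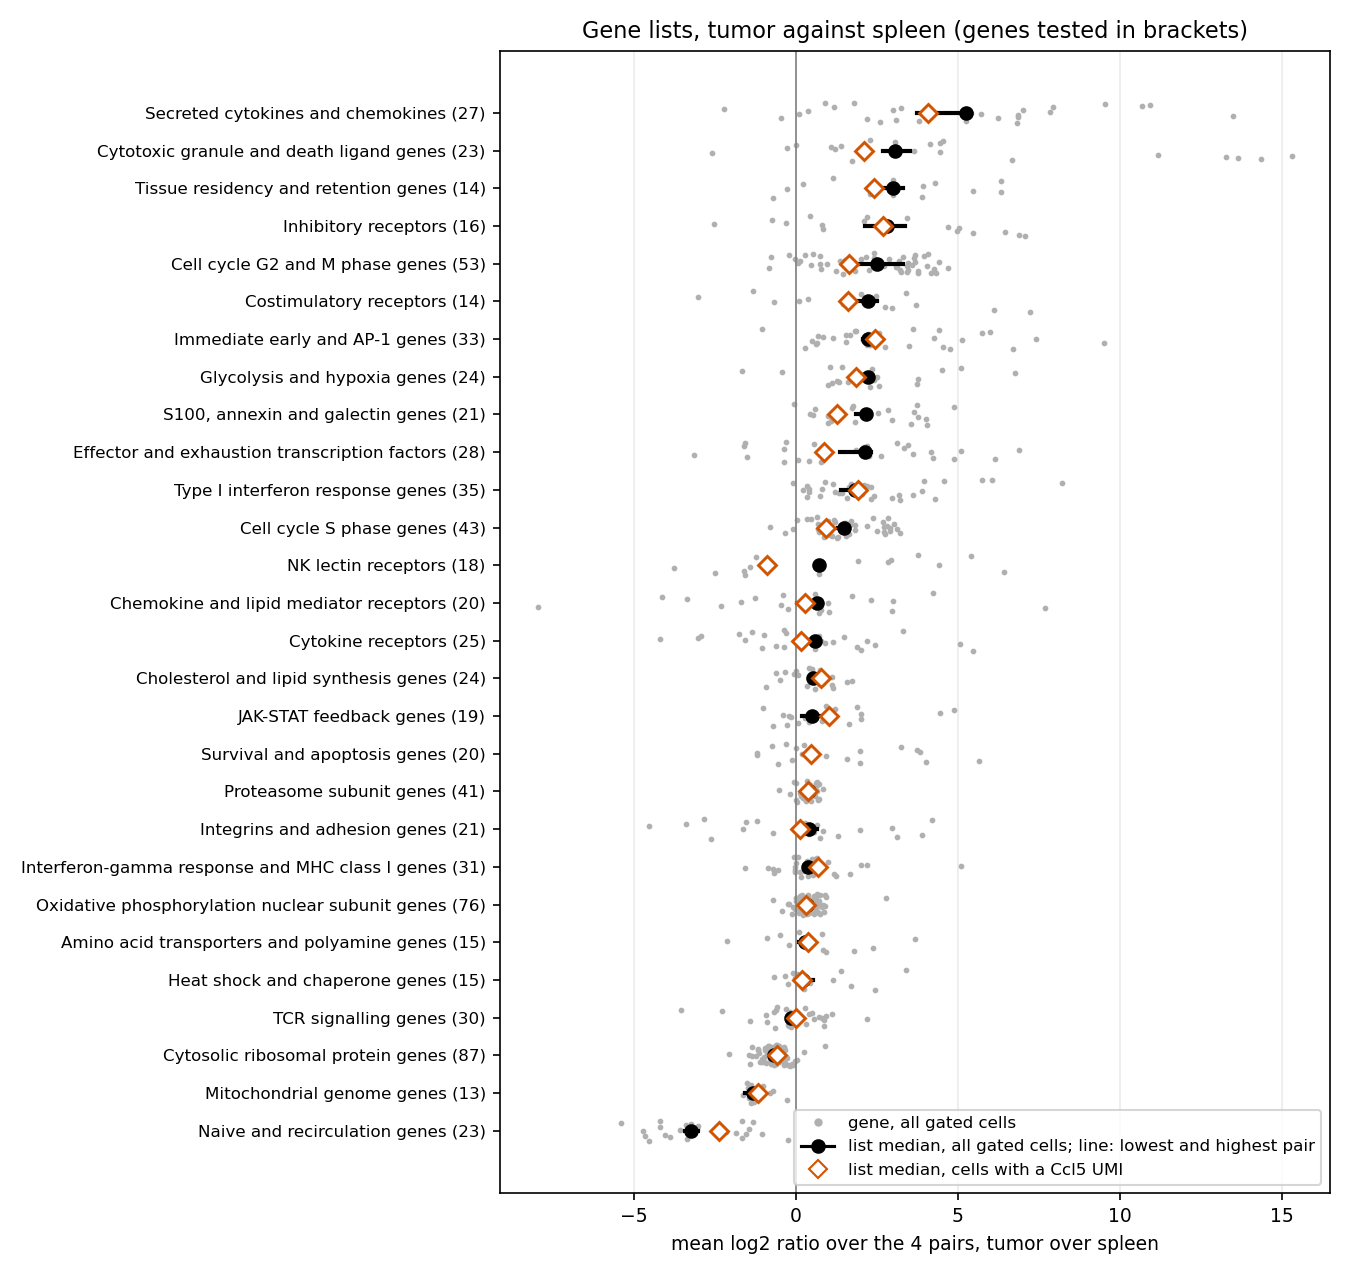
Tumor over spleen log2 ratios by gene list. Grey dots are genes (mean over the 4 pairs), black circles the list medians with a line from the lowest to the highest median of a single pair, and open diamonds the list medians among cells with a Ccl5 UMI. Medians run from -3.25 for naive genes to 5.26 for cytokines, and the diamond of the NK lectin receptors lies on the other side of 0 from its circle.

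Because the share of cells with a UMI of Ccl5 differed between the tissues, the comparison was repeated among gated cells with at least 1 UMI of Ccl5. These numbered 1409, 1367, 968 and 1579 in tumor and 609, 570, 625 and 662 in spleen. Of 11644 genes tested, 3574 (30.7%) were higher and 3522 (30.2%) lower, with 1117 (9.59%) and 636 (5.46%) at least 2-fold in every pair. Of the main calls, 3428 of 4539 higher genes (75.5%) and 3350 of 4694 lower genes (71.4%) were called again in that direction, with genes not tested there counted as not called again. They made up 95.9% and 95.1% of the calls in Ccl5-positive cells. In 17 and 3 genes the call was opposite. The Ccl5 cells are a part of the same libraries, so this is no independent replicate, and a UMI of Ccl5 is more likely in a deeper cell. In tumor, where many C1q-rich barcodes also held a Ccl5 UMI, it need not mark a state of the cell.

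Within Ccl5-positive cells the naive, cytotoxic and transcription factor lists had medians nearer to 0. The naive list had 22 of 23 lower genes with a median of -2.37, the cytotoxic list had 18 of 23 higher with a median of 2.11, and the transcription factor list 17 of 28 higher with a median of 0.88 in place of 2.13. Pdcd1 (5.83 ± 0.22), Ctla4 (6.5 ± 0.39), Gzmb (5.21 ± 0.94), Bhlhe40 (5.15 ± 0.64) and Nr4a1 (5.29 ± 0.76) remained far higher in tumor, and Lef1 (-3.69 ± 0.39) far lower. Tbx21 was at 0.55 ± 0.40. Immediate early genes were higher in 31 of 33 with a median of 2.45, and type I interferon genes in 34 of 35 with a median of 1.91.

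Other genes had another sign or call than over all cells. The NK lectin receptors had 7 higher and 9 lower with a median of -0.90 in place of 0.71. Klrg1, not called over all cells, was lower in Ccl5-positive tumor cells (-2.11 ± 1.49, adjusted p = 0.00124). Itgae was higher in Ccl5-positive tumor cells (0.64 ± 0.28, adjusted p = 3.52e-04). Ccr7 was not called here either (0.29 ± 0.44, adjusted p = 0.0858). Gzmm was lower here (-3.95 ± 0.51) as over all cells. Ccl5 itself chose these cells and its value is not read.

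**Figure D4:**
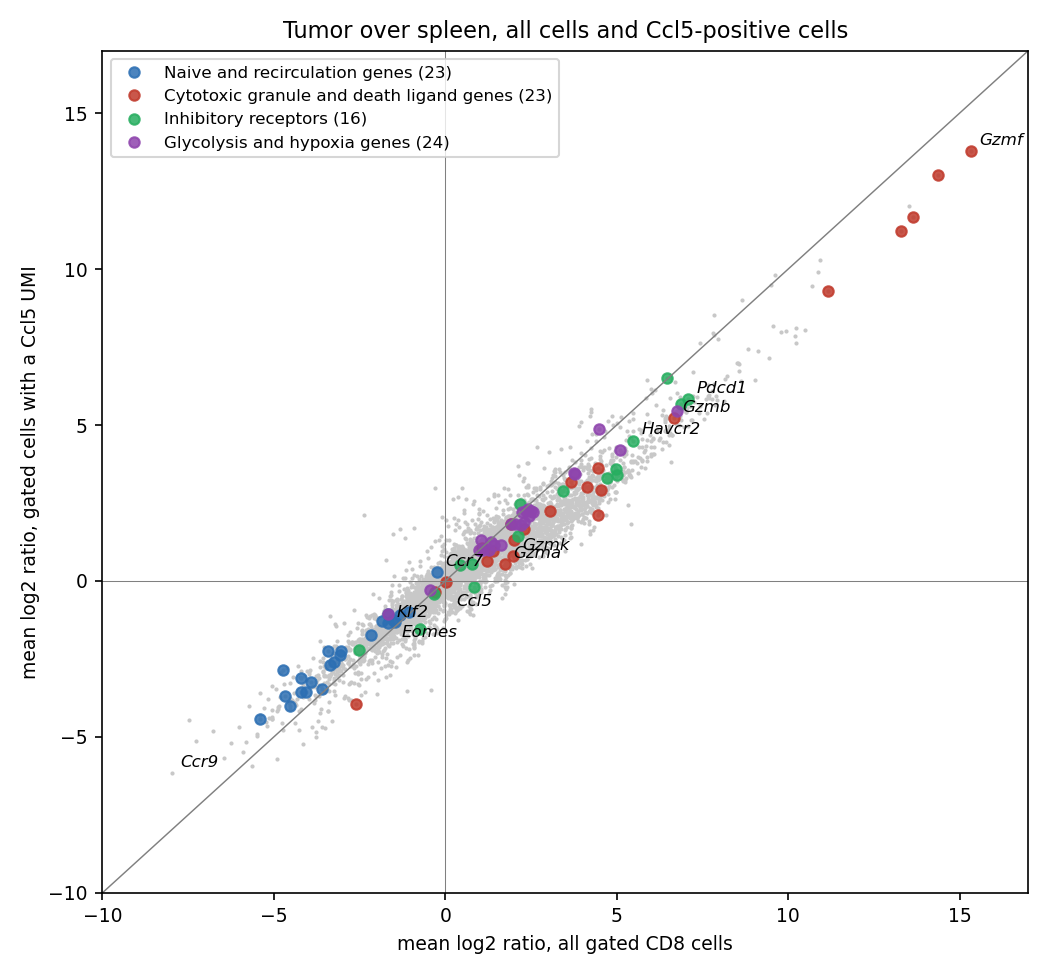
Mean log2 ratio, tumor over spleen, of each gene over all gated CD8 cells (horizontal axis) and over gated cells with a Ccl5 UMI (vertical axis), with 4 lists in color and the line of equal values. The 2 axes share cells. The median of the naive list is -3.25 on the horizontal and -2.37 on the vertical axis, and that of the cytotoxic list 3.04 and 2.11. Not every gene follows its list: Gzmm, a cytotoxic gene, lies on the left and farther from 0 on the vertical axis.

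The same gate in the CD45+ sort gave 1946 cells, from other libraries made of the same conditions. Of 10555 genes tested, 2638 (25%) were higher and 2309 (21.9%) lower. They included 2527 of the 4539 higher and 2265 of the 4694 lower genes of the CD8+ sort (55.7% and 48.3%), which made up 95.8% and 98.1% of the CD45+ calls, with 0 and 4 opposite calls. Only 10488 genes were tested in both sorts, and the others count here as not called again. There too tumors were dissociated with enzymes and spleens mechanically.

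The size of the tissue difference varied most between pairs for genes with low or uneven splenic levels. Besides the hemoglobin genes and Ccr8, the called genes with the largest spread were Hist1h3c (7.60, 4.20, 1.03 and 2.29 over the pairs), Klra5 (10.05, 6.36, 5.24 and 4.06), the mitotic kinase Ttk (7.67, 5.14, 2.02 and 2.80), Zbtb46 (2.64, 4.29, 7.06 and 1.83), Mnda (7.44, 11.01, 7.29 and 5.61) and Hist1h1b (6.69, 4.75, 1.52 and 2.88). Mnda was at 54.5 to 68.7 in tumor and 0 to 1.08 in spleen. Histone genes have near-identical copies and RNAs without a poly-A tail, so their single values are uncertain.

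Whether the tissue difference depended on genotype was tested with an interaction term (2 pairs a genotype, 2 residual degrees of freedom). At an adjusted p below 0.05 the tumor over spleen ratio was lower in Aire-/- mice for 99 genes (0.8% of 12371) and higher for 16 (0.129%). In all 99 genes both Aire-/- spleens stood above both Aire+/+ spleens, and 97 of them differed more in spleen than in tumor. These 99 genes were chosen by a test on the same values, so this pattern is partly built in. Its share over all genes tested is not given. Their median difference, Aire-/- minus Aire+/+ on the log2 scale, was 1.57 in spleen and -0.10 in tumor. Of the 99, 90 were also called higher in tumor than in spleen, 15 were in the G2 and M phase list (of 53 tested), 3 in the S phase list (of 43), 8 in the S100, annexin and galectin list (of 21), 5 in the cytotoxic list (of 23), 4 among the NK lectin receptors (of 18) and 55 in no list.

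S100a4, a marker of effector and memory cells, was at 1339, 1127, 1196 and 1261 in tumor and 51.4, 40.1, 115 and 132 in spleen, so the tumors did not separate by genotype and the spleens did (difference of the log2 ratio -1.44 ± 0.12, SE, adjusted p = 0.00566). Rrm2, a subunit of ribonucleotide reductase, was at 92.3, 95.6, 100.3 and 85.6 and 5.88, 3.95, 25.7 and 17.1 (-2.12 ± 0.20, adjusted p = 0.00566). The kinetochore gene Spc24 (2.56, 1.78, 7.59 and 6.69 in spleen, -2.05 ± 0.19), the histone gene Hist1h2bk (0.381, 0.401, 3.18 and 3.25, -3.60 ± 0.34) and the histone chaperone Asf1b (8.39, 7.10, 20.2 and 18.5, -1.33 ± 0.13) were called too. For each of them both Aire-/- spleens stood above both Aire+/+ spleens. Among the 85 promoter windows that RefSeq gave for the 99 genes, 34.1% held TTTGAA and 58.8% CCAAT, against 12.1% and 39.5% of the windows of genes tested. The share of splenic cells with a UMI of Ccl5 was 21.8 and 20% in Aire+/+ and 27.3 and 26% in Aire-/- mice. The share of splenic cells with a UMI of Mki67 or Top2a was 2.9 and 2.3% in Aire+/+ and 4.4 and 3.3% in Aire-/- mice, and without such cells 34 genes were lower and 9 higher. Of the genes just named, S100a4 was called again without such cells (-1.42), whereas Rrm2 (-0.48), Spc24 (-1.26), Hist1h2bk (-3.0) and Asf1b (-0.43) lost their call.

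The 16 genes with a higher ratio in Aire-/- mice included Itgae, whose tumor levels, given above, were higher in both Aire-/- libraries while its splenic levels overlapped (1.24 ± 0.19, SE, adjusted p = 0.0216). Usp18, which ends interferon signalling, was at 73.4, 76.5, 99.9 and 81.9 in tumor and 20.7, 19.9, 14.3 and 12.9 in spleen (0.86 ± 0.12). Adgrb2 was at 1.0, 0.887, 10.9 and 12.1 and 6.27, 5.96, 12.3 and 15.9 (2.40 ± 0.24), the cold-induced RNA-binding protein gene Cirbp at 159, 211, 151 and 179.9 and 123, 162, 73.2 and 85.8 (0.68 ± 0.10) and Gm12657 at 19.6, 24.8, 31.5 and 31.9 and 61.8, 65.9, 52.2 and 53.7 (0.79 ± 0.12).

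These genotype calls rest on 2 pools per genotype and tissue and were not stable across sorts. In the CD45+ sort, 45 of the 99 genes had the same sign and 1 of them, Klrg1, was called, while 4 were called in the opposite direction (Rrm2, Mki67, Birc5 and Ifitm3). Of the 16, 14 had the same sign and 1 was called. Leaving out a pair leaves 1 pair in its genotype, and the spread then comes only from the other genotype. Such fits cannot judge these calls. Their counts are listed with the other settings at the end, and no conclusion is drawn from them. Among Ccl5-positive cells all 99 kept their sign and 95 were called, with 256 lower and 71 higher calls in all. Of the 16, 14 kept their sign and 11 were called, and the calls of Itgae (0.20) and Usp18 (0.63) were lost. With cells thinned to 2000 UMIs, all 99 and 15 of the 16 genes kept their sign and 53 and 7 were called again, and among the genes named above Hist1h2bk (-3.27), Usp18 (0.67) and Gm12657 (0.55) lost their call. The Ccl5-positive and thinned fits use the same libraries as the main comparison.

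**Figure D5:**
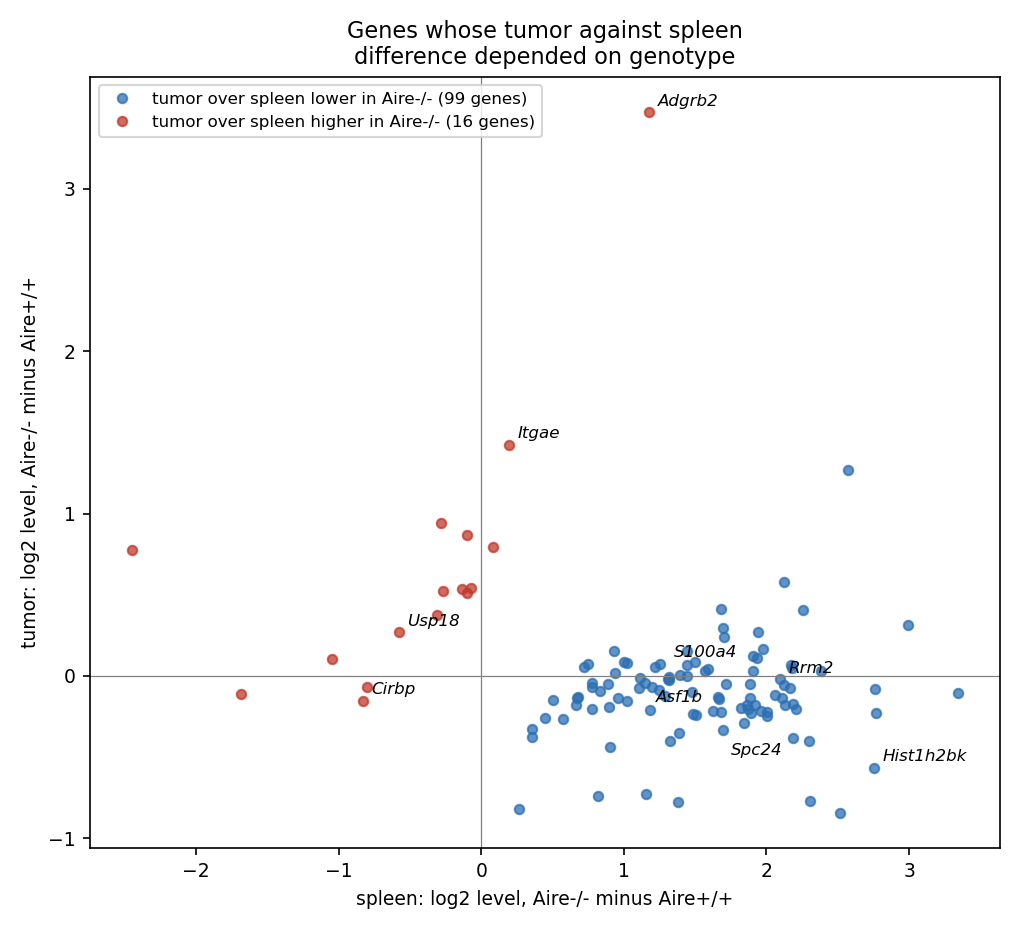
Difference between genotypes (mean log2 level of the 2 Aire-/- libraries minus the 2 Aire+/+ libraries) in spleen and in tumor for the 115 genes whose tissue difference depended on genotype. The genes were chosen for the gap between the axes. The 99 blue genes are spread along the splenic axis with a median of 1.57 and lie around -0.10 on the tumor axis.

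Treatment gave no such term. With anti-PD1 against isotype, 0 of 12371 genes (0%) passed an adjusted p of 0.05 in edgeR, 275 had an unadjusted p below 0.05, and DESeq2 called 1, Ccl5. Ccl5 was at 1435, 2102, 1922 and 3743 in tumor, higher with anti-PD1 in both genotypes, and at 1609, 1419, 2891 and 2552 in spleen, lower with anti-PD1 in both. With 2 residual degrees of freedom a difference can go undetected, so this does not show that treatment left the tissue difference alone.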

How the data were processed

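The authors deposited UMI counts per gene and barcode for each of the 16 libraries, whole numbers without normalization. Cell Ranger made them per the study's methods, and the processing notes name GRCm38. Strand and intron handling are not given in the sources used here. The 27 vector rows were left out and rows sharing a symbol were summed, which left 24469 symbols. Barcodes with at least 200 genes and at most 20% mitochondrial UMIs were kept, as in the study's methods, and 18789 then met the gate. No doublets were removed.

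UMIs were summed per library (15196257 to 32110043) and genes with at least 20 UMIs over the 4 libraries of a tissue were tested with edgeR 4.0.16 (TMM, quasi-likelihood, pair as block, 3 residual degrees of freedom). Log2 ratios per pair add 0.5 UMI to each library. Each condition has 1 pool a tissue, so p-values measure the spread between these pools. On simulated counts for tumor against spleen over 12371 genes, 98% of 100 genes changed 2-fold and 100% of 100 changed 4-fold were called. Of 12171 unchanged genes, 15 were called (0.123%). The changed genes had at least 400 UMIs, went up and down in equal number, and did not differ between pairs. Far fewer genes changed there than were called in the data. These shares therefore do not carry over to the data or to genes with few UMIs. Alternatives used DESeq2 1.42.0 and limma 3.58.1, with R 4.3.3 and Python 3.11.15. Motifs were searched on both strands.

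The members and the 28 gene lists were chosen with earlier results of these data known. Named genes are, in each direction, the 15 called genes with at least 400 UMIs and the largest smallest difference over pairs, the 10 such genes in no list, list members, the 10 called genes with the widest spread over pairs, and 5 per direction of the genotype term. Some list members, counted in their lists, are not reported here by name.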

Additional observations from a re-analysis of the deposited data

Results flagged for a closer look

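In 6 of the 39 genes looked at, the log2 ratio of 1 pair stood apart from the other 3 by Dixon's criterion. Chance marks about 1 in 20 groups. The 6 genes were named for the size or spread of their ratios, so that rate does not apply to them. For Serpine2 it was 9.07 in the Aire-/- isotype pair, against 9.75 in the nearest pair. The Aire+/+ anti-PD1 pair stood apart for Ampd1 (-8.65, nearest -6.22), Fam101b (-6.02, nearest -5.28) and Kcna2 (-7.70, nearest -5.33). Tumor UMIs were few for Ampd1 (3, 0, 1 and 1) and Kcna2 (7, 1, 6 and 5), so counting alone can move these ratios. The Aire+/+ isotype pair stood apart for Gprc5b (-4.93, nearest -8.19) and for Hba-a1 (-11.40, nearest -4.42). In tumor Gprc5b had 5, 0, 0 and 0 UMIs and Hba-a1 had 0 in every library. Ratios of pairs with 0 tumor UMIs rest on the 0.5 UMI added.

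The tumor over spleen log2 ratio differed between genotypes (Aire-/- minus Aire+/+, interaction term of edgeR) by 2.40 for Adgrb2, 1.24 for Itgae, 0.86 for Usp18, 0.79 for Gm12657 and 0.68 for Cirbp, and by -3.60 for Hist1h2bk, -2.12 for Rrm2, -2.05 for Spc24, -1.44 for S100a4 and -1.33 for Asf1b. Of these 10, the signs for Gm12657, S100a4, Spc24, Hist1h2bk, Rrm2 and Asf1b were the opposite in the CD45+ sort.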

How the results depend on the processing

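The 4539 higher and 4694 lower genes went to 2638 and 2309 in the CD45+ sort, which has fewer cells, and stayed within 1.5 times otherwise. Without 1 pair they ranged from 4197 to 4367 and from 4304 to 4421. The 1795 genes at least 2-fold higher in every pair became 1117 in Ccl5-positive cells, 743 with limma (which adds 5 to each mean) and 922 in the CD45+ sort, and ranged from 1784 to 1889 without 1 pair. The 1143 lower ones became 636, 245 and 460, 662 after thinning, and 1139 to 1238 without 1 pair.

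The genotype term (115 genes, 16 higher and 99 lower) gave 178 (162 lower) with plain totals, 43 (9 and 34) without cycling cells, 327 (71 and 256) in Ccl5-positive cells and 27 (21 and 6) in the CD45+ sort. Without the Aire+/+ isotype, Aire+/+ anti-PD1, Aire-/- isotype or Aire-/- anti-PD1 pair it gave 198, 227, 148 and 112, with 9 to 71 higher and 103 to 160 lower. The treatment term, 0 genes with edgeR (275 at an unadjusted p below 0.05), gave 1 with DESeq2 and 4 (2 and 2) in the CD45+ sort. For the genotype term, a fit without a pair leaves 1 pair in its genotype, and the spread then comes only from the other genotype. Counts from such fits cannot judge the genotype calls, and no conclusion is drawn from them. The causes of the changes in these counts were not tested.

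Over the named genes and the alternatives, 4030 of 4123 values kept direction and call, 62 lost the call, 15 gained one and 16 reversed. Ccl5 (0.09) became -0.0697 without the Aire+/+ anti-PD1 pair, -0.05 without the Aire-/- anti-PD1 pair, -0.99 in the cells it chose and -0.0248 in the CD45+ sort. In Ccl5-positive cells Ccr7 became 0.29 and Itgae 0.64. Without cycling cells Crtam became 0.10, Cxcr3 0.16, Hist1h2bk -0.0799 and Lck 0.000172. With limma Crtam became 0.0263 and Cxcr3 0.34, and after thinning Cxcr3 became 0.30. Lair1 became 1.09 without the gate and 0.32 in the CD45+ sort, where Klrg1 became 1.54. The genotype differences there became -0.52 for Gm12657, 0.11 for S100a4, 1.65 for Spc24, 4.92 for Hist1h2bk, 4.52 for Rrm2 (adjusted p = 0.0131, edgeR) and 1.04 for Asf1b.

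Without the Aire+/+ isotype pair Adgrb2 and Tox (-0.33) lost their call and Irf9 (0.32) gained one. Without the Aire+/+ anti-PD1 pair Adgrb2 and Ccl6 lost it. Without the Aire-/- isotype pair Tox (-0.21) lost it, while Ccr7 (-0.33) and Lck (-0.20) gained one, and without the Aire-/- anti-PD1 pair Ccl6, Cd5 (-0.31) and Crtam (-0.25) lost it and Itgae (-0.99) gained one. Cd5 lost it by the rule on direction, with an adjusted p of 0.034 (edgeR). The mean ratio of 23 named genes moved over 1.5-fold without some pair, among them the hemoglobin, histone and Klra genes, Ccr8, Penk, Atf3, Ttk, Mnda and Zbtb46.

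The pair of libraries of a condition is the block of the fit, and without this pairing 4 named genes lost their call (Adgrb2, Cxcr3, Gzma and Tox, adjusted p = 0.0636 for Cxcr3, edgeR) and Lck gained one. Depth limits genes under 20 UMIs in each tissue, which were not tested.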
